A study of Mus musculus with 18 samples.

Results

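The nuclear-encoded genes of oxidative phosphorylation were followed from stem-like to differentiated barcodes of the mouse ileal epithelium. They were also compared between wild-type mice and mice in which an inducible Cre made in Lgr5-expressing cells deletes an exon of Setdb1. The members were every gene whose symbol begins with Nduf, Uqcr or Atp5, with Sdh followed by a, b, c or d, or with Cox followed by a digit from 4 to 8. This rule took 98 of the 32286 gene features. They were 39 genes named for complex I, 4 of complex II, 8 of complex III, 18 of complex IV, 17 of complex V and 12 assembly factors (Ndufaf and Sdhaf). Ndufa4 is counted with complex I by its symbol, although its protein is now assigned to complex IV. The rule itself uses only symbols and no measured value, although it was set with earlier results of these data known.

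Single-cell RNA-seq of GFP+ cells sorted from ileal crypts was made from male C57Bl6 mice aged 60 to 65 days, which had all received tamoxifen once by the intraperitoneal route, at 70 mg/kg, and were analyzed 5 days later. All mice carried the Lgr5-GFP-CreERT2 knock-in allele, in which GFP and the inducible Cre are made in Lgr5-expressing stem cells and which is silenced in a mosaic of crypts. In the Lgr5+ experiment WT mice were Lgr5-GFP-CreERT2, and the Setdb1-KO genotype was Lgr5-GFP-CreERT2/Setdb1lox/lox, with lox sites around exon 3 of Setdb1, an H3K9 methyltransferase gene. By the study's description this sort also let differentiated cells through. In the lineage-traced experiment the genotypes were Lgr5-GFP-CreERT2/nTnG (WT) and Lgr5-GFP-CreERT2/Setdb1lox/lox/nTnG (Setdb1-KO), and with the nTnG reporter stem cells and their progeny keep GFP after Cre has acted. Each of the 4 groups had 2 libraries, and all tests below treat the library as the replicate. The methods describe the single-cell libraries as biological replicates. The sorted cells had been frozen in DMSO before the libraries were made.

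The respiratory chain moves electrons from NADH (complex I) and succinate (complex II) through complex III and cytochrome c to oxygen at complex IV, and the proton gradient built on the way drives ATP synthesis by complex V. Most subunits are encoded in the nucleus and imported, while a small set is encoded by mitochondrial DNA. Absorptive enterocytes take up and re-export nutrients and are rich in mitochondria, whereas crypt stem cells divide and renew the epithelium.

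Libraries held 16881518 to 81876035 UMIs. Barcodes with 1000 UMIs (Lgr5+) or 500 UMIs (lineage-traced) to 18000 UMIs and under 5% mitochondrially encoded UMIs were kept, which left 2894 to 11423 per library. They were placed in classes by the summed UMIs of marker genes, so that names such as enterocyte-like rest on these markers alone, and no respiratory gene is among them. The stem markers summed to 5445 to 9221 CPM (UMIs per 1000000 UMIs) in the stem-like class of Lgr5+ libraries and to 88.4 to 280 CPM in the enterocyte-like class, where the enterocyte markers summed to 21731 to 30397 CPM. Median depth was 4686 to 9336 UMIs per kept barcode in the Lgr5+ libraries but 961 to 2085 in the lineage-traced ones. The limit on mitochondrially encoded UMIs left out 735 and 1019 barcodes in lineage-traced WT and 73 and 223 in lineage-traced Setdb1-KO. In the Lgr5+ libraries it left out 662 and 307 barcodes in WT and 121 and 252 in Setdb1-KO. RNA outside cells (barcodes of 1 to 100 UMIs) made up 2.69% to 6.90% of all UMIs in the Lgr5+ libraries and 5.54%, 10.7%, 13.0% and 42.2% in the lineage-traced ones, the last in WT 2. In the lineage-traced libraries 44.0% to 68.5% of kept barcodes fell in no class, against 18.2% to 25.6% in the Lgr5+ libraries.

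Setdb1 itself was measured with 3′ tags, which lie outside the deleted exon and therefore do not test the deletion. Over all kept barcodes it stood at 11.3 and 9.93 CPM in the Lgr5+ WT libraries and at 5.32 and 6.21 CPM in the Setdb1-KO libraries. In the lineage-traced libraries it stood at 6.11 and 4.21 CPM in WT and at 10.4 and 7.85 CPM in Setdb1-KO, so the tag level over all kept barcodes was higher in Setdb1-KO there. In their stem-like barcodes it was 10.0 and 11.6 CPM in WT and 9.77 and 11.6 CPM in Setdb1-KO, from 5 to 29 UMIs per library, with overlapping values. The deletion itself was examined by the study with a PCR on sorted GFP+ cells of both experiments.

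Together the 98 genes supplied a large share of the transcriptome, and that share followed the cell class. In the Lgr5+ libraries they summed to 55807 and 57789 CPM (WT) and 59130 and 59820 CPM (Setdb1-KO) in stem-like barcodes. In enterocyte-like barcodes they summed to 92940 and 98075 CPM (WT) and to 90265 and 95391 CPM (Setdb1-KO). The 2 classes did not overlap in any library, and their means were 58136 ± 1767 CPM (SD, n = 4) and 94168 ± 3342 CPM (SD, n = 4). Progenitor-like barcodes lay between them at 70495 ± 1637 CPM (SD, n = 4). The secretory classes were spread around and below the stem-like level, with tuft-like at 59675 ± 2313 CPM (SD, n = 4), enteroendocrine-like at 44722 ± 3913 CPM (SD, n = 4), goblet-like at 42620 ± 3375 CPM (SD, n = 4) and Paneth-like at 16634 ± 3388 CPM (SD, n = 3). The ranges of tuft-like (57829 to 63018 CPM) and stem-like barcodes overlapped, although within each of the 4 libraries the tuft-like sum was the higher. The same held for enteroendocrine-like (39401 to 48811 CPM) over goblet-like barcodes (38122 to 45594 CPM). These differences between sums were not tested. These are shares of all UMIs of a class, so a class that spends many UMIs on other products, such as the defensins of Paneth cells, has fewer left for every other gene.

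**Figure D1:**
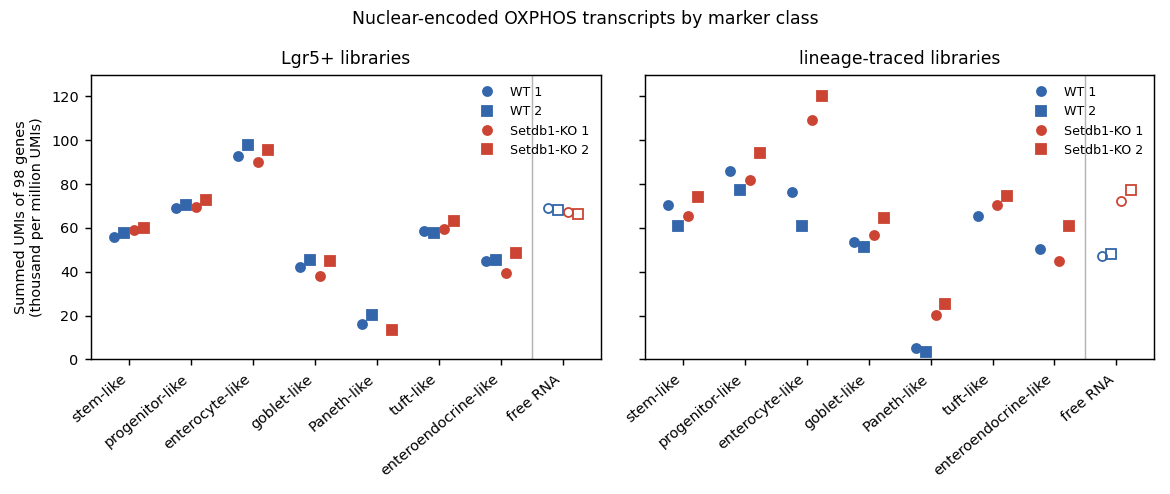
Summed UMIs of the 98 genes (vertical axis, in units of 1000 CPM) in each marker class with at least 20 barcodes, one point per library (blue WT, red Setdb1-KO, circle replicate 1, square replicate 2), and open points for RNA outside cells. The 4 Lgr5+ libraries rise from 55807 to 59820 CPM in stem-like to 90265 to 98075 CPM in enterocyte-like barcodes, and the lineage-traced libraries separate by genotype in enterocyte-like barcodes.

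Individual genes moved with the sum. In enterocyte-like against stem-like barcodes of the Lgr5+ libraries (edgeR quasi-likelihood test with the library as a block, Benjamini-Hochberg adjusted p under 0.05 over all genes), 80 of the 92 members tested rose and 2 fell. Among all 12218 genes tested, 64.9% were called in either direction, 28.4% higher and 36.5% lower. The median log2 change was 0.83 for the members and -0.18 for all genes. By complex, 37 of 38 genes of complex I rose, 4 of 4 of complex II, 8 of 8 of complex III, 11 of 13 of complex IV and 16 of 17 of complex V. Of the 12 assembly factors 4 rose and 1 fell, with a median of 0.15. The 6 members not tested between classes were isoforms at or near 0, namely Cox7b2, Cox8b and Cox8c without a single UMI, and Cox6a2, Cox4i2 and Ndufa4l2 with few. Of these, Cox6a2 had enough UMIs to be tested over all kept barcodes of the Lgr5+ libraries.

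Complex I rose from 16654 ± 538 to 26706 ± 885 CPM (SD, n = 4). Its largest changes were in accessory subunits. Ndufb10 stood at 438, 444, 537 and 514 CPM in the stem-like barcodes of WT 1, WT 2, Setdb1-KO 1 and Setdb1-KO 2, and at 1145, 1311, 1200 and 1167 CPM in the enterocyte-like barcodes of the same libraries. All 4 libraries rose, without overlap between the classes, by 1.49 on the log2 scale (SE 0.11). Ndufs5 rose by 1.31 (SE 0.07), Ndufa6 by 1.27 (SE 0.09) and Ndufv3 by 1.21 (SE 0.07). Ndufa7 did not pass the test, with 660 to 731 CPM in stem-like and 612 to 726 CPM in enterocyte-like barcodes (log2 0.15, SE 0.09, adjusted p = 0.156).

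Complex II, succinate dehydrogenase, links the TCA cycle with the chain and has 4 nuclear genes, all of which rose. The iron-sulfur subunit Sdhb stood at 349 to 400 CPM in stem-like and 823 to 856 CPM in enterocyte-like barcodes (log2 1.33, SE 0.09). The membrane anchor Sdhd went from 221 to 284 CPM up to 454 to 599 CPM (log2 1.33, SE 0.08), and the second anchor, Sdhc, from 125 to 138 CPM up to 210 to 226 CPM (log2 0.87, SE 0.08). The flavoprotein Sdha changed least within the complex, from 122 to 137 CPM up to 161 to 189 CPM (log2 0.60, SE 0.07). The 4 genes of one complex therefore had unequal fitted changes, a difference between genes that was not tested.

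In complex III the Rieske iron-sulfur protein gene Uqcrfs1 rose most, by 1.42 (SE 0.09), from 403 to 434 CPM up to 939 to 1047 CPM. Uqcrb and the core protein gene Uqcrc1 followed with 1.09 (SE 0.10) and 1.06 (SE 0.08), and Uqcr10 rose least, by 0.50 (SE 0.10). In complex V, Atp5k (subunit e), Atp5md and Atp5o (the stalk protein OSCP) rose by 1.16 (SE 0.10), 1.14 (SE 0.09) and 1.14 (SE 0.11). The genes of the catalytic subunit beta, Atp5b, and of subunit alpha, Atp5a1, changed less, by 0.68 (SE 0.09) and 0.73 (SE 0.09).

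**Figure D2:**
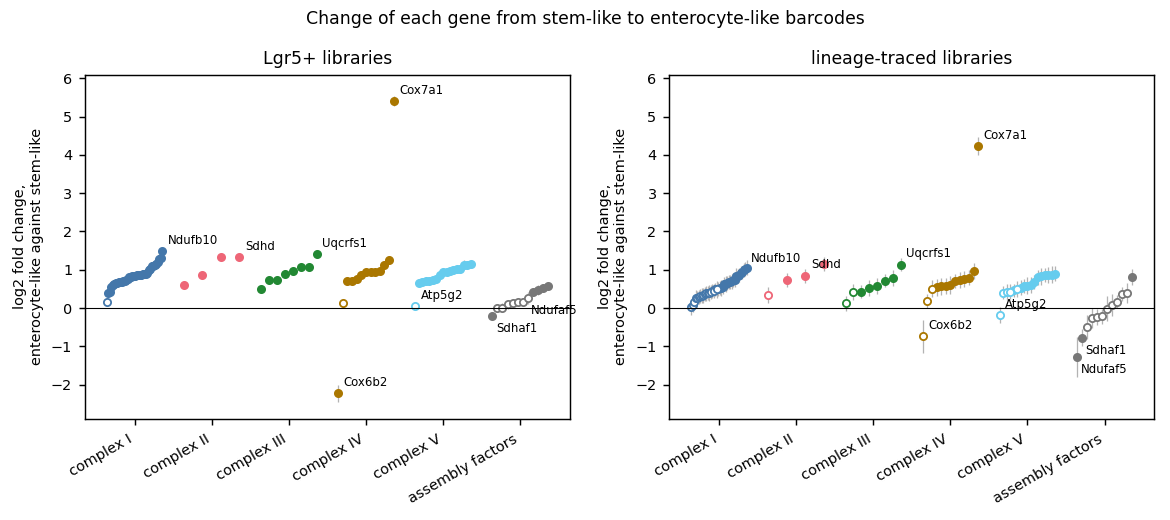
log2 fold change (vertical axis) of each member from stem-like to enterocyte-like barcodes, ordered within its complex, with SE bars, filled where the edgeR adjusted p was under 0.05 and open where it was not. In the Lgr5+ libraries most members lie between 0.5 and 1.5, Cox7a1 stands at 5.41 and Cox6b2 at -2.22, and the assembly factors scatter around 0.

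The largest change among the members was in complex IV and concerned an isoform. Subunit 7a of cytochrome c oxidase is encoded by Cox7a1, best known from heart and skeletal muscle, and by Cox7a2, which is made in most tissues. Cox7a1 stood at 8.67, 9.08, 10.7 and 16.9 CPM in the stem-like barcodes of WT 1, WT 2, Setdb1-KO 1 and Setdb1-KO 2, and at 410, 420, 384 and 494 CPM in their enterocyte-like barcodes. Every library rose, and the classes were far apart. The log2 change was 5.41 (SE 0.13, adjusted p = 2.26e-29), a fitted change of 42.5-fold. Cox7a2 rose as well, from 864 to 966 CPM up to 1596 to 1997 CPM (log2 1.12, SE 0.09). As a share of the UMIs of both genes, Cox7a1 went from 1.21% ± 0.37 (SD, n = 4) in stem-like to 3.18% ± 0.80 (SD, n = 4) in progenitor-like and 19.4% ± 1.83 (SD, n = 4) in enterocyte-like barcodes. These shares count 3′ tags, which do not scale with transcript length, and say nothing of protein. The third relative, Cox7a2l, which takes part in the assembly of supercomplexes, did not pass the test, with 383 to 410 CPM and 379 to 409 CPM in the 2 classes (log2 0.14, adjusted p = 0.0695).

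In GRCm38 the gene Cox7a1 lies at chr7:30184144-30186078 on the plus strand and Cox7a2 at chr9:79755361-79759878 on the minus strand. The promoters of these paralogues are shown because they belong to genes of the same subunit with changes of different size. RefSeq (GRCm38.p6) gave a promoter for 79 of the 98 members. The 250 bases before the start of Cox7a1, chr7:30183921-30184170 on the plus strand, hold 4 CpG dinucleotides and include 27 bases of an annotated exon, and those before Cox7a2, chr9:79759854-79760103 on the minus strand, include 25 exon bases and hold 14 CpG, near the median of 14.5 over the members' promoters and above the median of 6 over all promoters. The promoter of Atp5g3, chr2:73911327-73911576 on the minus strand, is given as a member with a match to the estrogen-related receptor motif TCAAGGTCA, read on either strand and set in capitals, starting 52 bases before the gene. Neither the Cox7a1 nor the Cox7a2 sequence has a match to any of the 6 motifs searched.
Cox7a1: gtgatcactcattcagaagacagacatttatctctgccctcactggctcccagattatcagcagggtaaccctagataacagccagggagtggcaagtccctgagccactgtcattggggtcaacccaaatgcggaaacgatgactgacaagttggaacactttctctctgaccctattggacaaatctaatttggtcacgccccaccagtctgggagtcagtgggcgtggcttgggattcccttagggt
Cox7a2: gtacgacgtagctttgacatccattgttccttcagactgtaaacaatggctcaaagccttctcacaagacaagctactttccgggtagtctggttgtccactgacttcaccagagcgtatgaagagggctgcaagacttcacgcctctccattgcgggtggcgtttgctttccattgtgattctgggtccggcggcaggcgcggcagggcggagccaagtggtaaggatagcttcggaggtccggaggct
Atp5g3: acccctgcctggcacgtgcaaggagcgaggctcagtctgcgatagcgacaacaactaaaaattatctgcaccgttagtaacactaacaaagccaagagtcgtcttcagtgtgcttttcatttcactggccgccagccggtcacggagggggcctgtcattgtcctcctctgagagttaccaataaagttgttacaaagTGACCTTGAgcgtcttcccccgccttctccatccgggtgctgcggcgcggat

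A second isoform of complex IV went the other way. Cox6b2, known as the testis form of subunit 6b, stood at 23.2, 30.6, 41.9 and 38.6 CPM in stem-like and at 5.00, 2.91, 11.2 and 5.23 CPM in enterocyte-like barcodes of WT 1, WT 2, Setdb1-KO 1 and Setdb1-KO 2. It fell in all 4 libraries, by 2.22 on the log2 scale (SE 0.22, adjusted p = 1.61e-11). Its ubiquitous counterpart Cox6b1 rose by 0.94 (SE 0.10), so the share of Cox6b2 in the UMIs of both went from 2.64% ± 0.63 to 0.295% ± 0.19 (SD, n = 4). Cox6b2 was lower than in stem-like barcodes in each of the other Lgr5+ classes too. The remaining isoform genes stayed minor. The muscle form Cox6a2 stood at 0 to 4.08 CPM in enterocyte-like barcodes and had at most 0.382% of the UMIs of the pair with Cox6a1, while Cox5a, Cox4i1 and Cox8a, forms made in most tissues, rose by 1.25 (SE 0.11), 0.71 (SE 0.09) and 0.76 (SE 0.10).

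**Figure D3:**
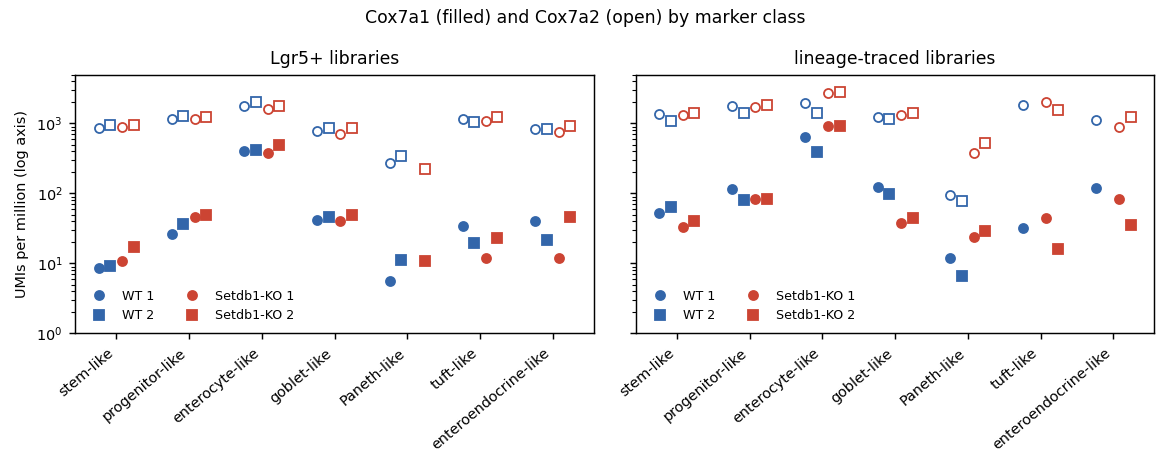
CPM (log axis) of Cox7a1 (filled) and Cox7a2 (open) in each marker class, one point per library. In the Lgr5+ libraries Cox7a1 rises from 8.67 to 16.9 CPM in stem-like to 384 to 494 CPM in enterocyte-like barcodes, while Cox7a2 stays within a far narrower range.

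The c-ring of ATP synthase offered a comparison without a change of protein, since Atp5g1, Atp5g2 and Atp5g3 encode the same mature subunit c behind different import sequences. Atp5g1 rose from 1669, 1793, 1972 and 1972 CPM to 3135, 3194, 3211 and 3341 CPM (log2 0.97, SE 0.10), and Atp5g3 from 658 to 732 CPM up to 1225 to 1258 CPM (log2 1.02, SE 0.09). Atp5g2 stood at 1338, 1358, 1321 and 1369 CPM in stem-like barcodes and at 1212, 1251, 1193 and 1296 CPM in enterocyte-like ones. It did not pass the test (log2 0.05, SE 0.10, adjusted p = 0.675), and in every library its level was lower in enterocyte-like than in stem-like barcodes, where both relatives were higher. With library size in place of TMM scaling, which shifts the median of all genes in this comparison from -0.18 to -0.35, 78 members were higher and 2 lower.

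Assembly factors, which help build the complexes without staying in them, had a median change of 0.15, against 0.86 for the subunits. This difference was not tested, and their share called higher was near that of all genes given above. Ndufaf8, Ndufaf3, Sdhaf3 and Sdhaf4 rose by 0.58 (SE 0.07), 0.53 (SE 0.09), 0.48 (SE 0.13) and 0.43 (SE 0.10). Sdhaf1, needed for the iron-sulfur subunit Sdhb, stood at 75.4 to 103 CPM in stem-like and 62.9 to 84.0 CPM in enterocyte-like barcodes and was called lower at the edge of the threshold (log2 -0.20, SE 0.09, adjusted p = 0.0492), a call that ended under DESeq2 (adjusted p = 0.253) and without WT 1, Setdb1-KO 1 or Setdb1-KO 2, 1 at a time. The other 7 did not pass. As summed levels, the 12 factors went from 692 ± 49.4 to 729 ± 39.6 CPM, while the share of all member UMIs held by each of complexes I, III, IV and V differed little between the classes.

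Barcodes without a secretory or T-cell class were also ordered by their share of enterocyte-marker UMIs, in 7 steps, to see where along this order the members rose. Across the Lgr5+ libraries the sum stood at 52907 to 57281 CPM below 500 marker CPM, at 65994 to 71373 CPM between 1000 and 2500, at 74842 to 88270 CPM between 2500 and 5000, and at 90478 to 98458 CPM between 10000 and 30000. It therefore rose in all 4 libraries before the enterocyte-like class began at 10000. In the lineage-traced Setdb1-KO libraries the sum rose as well, from 67541 and 80065 CPM in the lowest step to 110101 and 121568 CPM between 10000 and 30000. In lineage-traced WT 1 it went from 21828 and 55223 CPM in the first steps to 72561, 72316 and 72029 CPM in the third to the fifth and 79441 CPM in the sixth. WT 2 went from 15536 and 57760 CPM to 68949 CPM in the third step, 53689 and 51791 CPM in the next, 57226 CPM in the sixth and 66506 CPM in the last. The upper limit for free RNA in these WT libraries was 142% and 146% in the lowest step, where it is no limit at all, and 38.7% to 86.9% in the third to the fifth, so that no rise or plateau is read from them. The limit of their Paneth-like class was raised to 498490 and 541051 marker CPM, and 537 and 186 barcodes lay just below it. Barcodes rich in Paneth markers can therefore be among those ordered, and their part in these sums was not tested. Within the Lgr5+ libraries Cox7a1 stood at 8.1 to 13.9 CPM in the lowest step, 78.2 to 139 CPM between 2500 and 5000, and 506 to 718 CPM above 30000, so it was still higher in the last step, where the sum, at 85885 to 96078 CPM, was lower than in the sixth in all 4 libraries. Atp5g1 went from 1572 to 1818 CPM in the lowest step to 3281 to 3445 CPM between 10000 and 30000, whereas Atp5g2 stayed at 1228 to 1341 and 1249 to 1359 CPM in the same steps. Lgr5+ Setdb1-KO 1 had the lowest sum of the 4 Lgr5+ libraries between 2500 and 10000, at 74842 and 83626 CPM. In the Lgr5+ libraries free RNA could account for at most 1.66% to 8.10% of UMIs in any step.

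**Figure D4:**
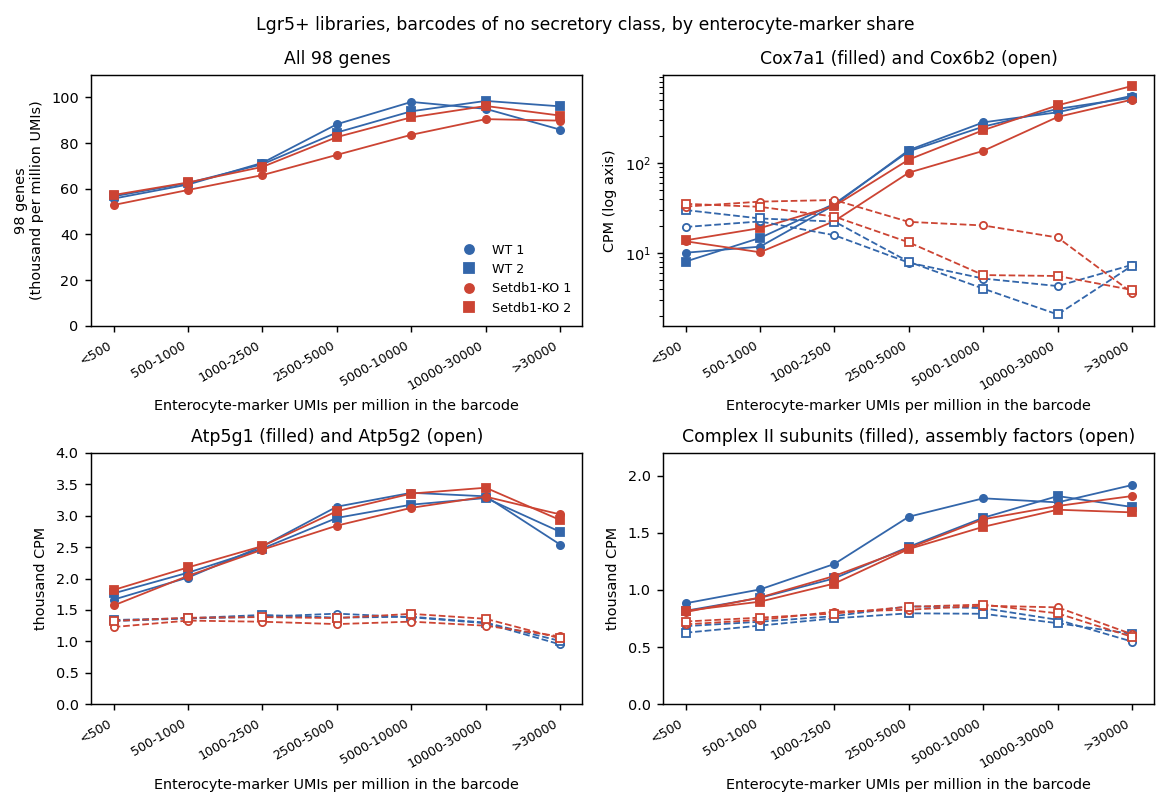
Levels in 7 steps of enterocyte-marker share (horizontal axis, marker CPM) for the 4 Lgr5+ libraries, with the 98 genes summed, Cox7a1 with Cox6b2, Atp5g1 with Atp5g2, and complex II with the assembly factors in the 4 panels. The sum reaches 90478 to 98458 CPM in the sixth step and is 85885 to 96078 CPM in the last, Cox7a1 climbs to 506 to 718 CPM in the last, Atp5g2 ends at 952 to 1079 CPM, and the assembly factors stand at 795 to 857 CPM in the fourth step, 791 to 872 CPM in the fifth and 548 to 615 CPM in the last.

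In the lineage-traced libraries, with fewer UMIs per barcode and more free RNA, 54 of 92 members rose from stem-like to enterocyte-like barcodes and 2 fell. Among all 8675 genes tested 44.8% were called, 23.7% higher and 21.1% lower. The median change was 0.53 for the members and -0.05 for all genes. The summed level of the members went from 70465 to 76425 CPM in WT 1 and from 60968 to 60781 CPM in WT 2, so it did not rise in WT 2. It went from 65317 to 109119 CPM in Setdb1-KO 1 and from 74322 to 120414 CPM in Setdb1-KO 2. The same 54 genes had risen in the Lgr5+ libraries, and Sdhaf1 was called lower in both (here -0.77, SE 0.23, adjusted p = 0.00442). Across the 92 genes, which are not independent replicates, the changes in both experiments had a Spearman correlation of 0.908, and a Pearson correlation of 0.874 without Cox7a1 and Cox6b2. Cox7a1 stood at 52.8, 65.0, 33.0 and 39.9 CPM in stem-like and 651, 391, 923 and 923 CPM in enterocyte-like barcodes (log2 4.23, SE 0.23, adjusted p = 2.14e-28). Sdhb, Uqcrfs1, Ndufa6 and Ndufb10 rose by 1.15 (SE 0.17), 1.13 (SE 0.17), 1.06 (SE 0.19) and 1.03 (SE 0.18). Sdhd and Sdhc rose by 0.85 (SE 0.18) and 0.74 (SE 0.18), and Sdha did not pass (0.34, SE 0.20). Atp5g2 again did not pass (-0.18, SE 0.20), against 0.61 (SE 0.22) for Atp5g1. The second gene called lower was Ndufaf5 (-1.27, SE 0.52, adjusted p = 0.0375), at 1.47 to 11.3 CPM in enterocyte-like barcodes. The number called was less stable than in the Lgr5+ libraries. It was 30 without Setdb1-KO 2, 34 in WT libraries alone and 7 when library size replaced TMM scaling, which moves the median of all genes to -0.31.

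Against this rise, the secretory classes moved differently. Among Lgr5+ libraries progenitor-like barcodes already had 61 members higher and 3 lower than stem-like ones (41.5% of all genes called, 20.7% higher and 20.7% lower, median of the members 0.27). Goblet-like barcodes had 4 higher and 66 lower (68.8% of all genes called, 32.5% higher and 36.2% lower, median -0.36), tuft-like 9 higher and 56 lower (47.6% called, 22.3% higher and 25.3% lower, median -0.33), Paneth-like 1 higher and 86 lower (32.8% called, 14.9% higher and 17.9% lower, median -0.67) and enteroendocrine-like 1 higher and 87 lower (66.2% called, 33.2% higher and 33.0% lower, median -0.99). With library size in place of TMM scaling the tuft-like counts turned to 23 higher and 18 lower, and the Paneth-like ones became 0 higher and 91 lower with a median of all genes at -1.47. The direction in tuft-like barcodes therefore depends on the scaling, and the size in Paneth-like ones does as well. The enteroendocrine-like size is tied to the scaling too, with TMM factors of 1.44 to 1.65 against 1.00 to 1.11 in stem-like barcodes. By mean summed CPM enteroendocrine-like barcodes lay above goblet-like and Paneth-like ones, whereas their median change was the lowest of these classes.

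Single members broke these patterns. Cox7a1 was higher than in stem-like barcodes in progenitor-like (1.77, SE 0.14), goblet-like (2.10, SE 0.14), Paneth-like (1.10, SE 0.38) and enteroendocrine-like (0.80, SE 0.25) barcodes. The levels behind the Paneth-like call were 5.67, 11.1 and 11.0 CPM, close to those of stem-like barcodes, and with library size in place of TMM scaling no member was called higher there. In goblet-like barcodes Cox7a1 stood at 40.5 to 49.1 CPM, far below the 384 to 494 CPM of enterocyte-like ones. The enterocyte markers summed to 2150 to 2777 CPM in goblet-like, 1428 to 2422 CPM in enteroendocrine-like and 601 to 901 CPM in stem-like barcodes. Doublets were not removed, and their part in these Cox7a1 levels was not tested. Ndufaf3, an assembly factor of complex I, was highest in tuft-like barcodes, at 158, 144, 213 and 163 CPM against 48.1 to 71.4 CPM in stem-like ones (log2 1.16, SE 0.10). Sdhaf4 was higher there as well (0.85, SE 0.13), while Sdhaf3, Ndufaf6 and Ndufaf4 were lower, by -1.82 (SE 0.30), -1.44 (SE 0.19) and -1.03 (SE 0.14). In lineage-traced libraries Ndufaf3 was the 1 member called higher in tuft-like barcodes (1.61). There progenitor-like barcodes had 15 higher and 0 lower (11.2% of all genes called, 5.97% higher and 5.19% lower), and goblet-like 2 and 6 (37.8%, 20.7% higher and 17.1% lower). Paneth-like barcodes had 1 and 27 (18.5%, 10.2% higher and 8.31% lower), tuft-like 1 and 15 (21.6%, 9.24% higher and 12.3% lower) and enteroendocrine-like 0 and 67 (20.7%, 8.46% higher and 12.3% lower). WT 2 had too few barcodes for the tuft-like and enteroendocrine-like classes, so each rests on 1 WT library. Tuft-like barcodes numbered 54, 29 and 168, and enteroendocrine-like ones 45, 28 and 93, in WT 1, Setdb1-KO 1 and Setdb1-KO 2. Free RNA raised the limit of the lineage-traced Paneth-like class to 498490 and 541051 marker CPM in WT and to 229858 and 231398 marker CPM in Setdb1-KO. Its levels of all other genes are thereby bounded differently in each genotype and are not compared. These lineage-traced counts summed to 134 calls, and to 74 without WT 1.

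The neighbors of the respiratory chain in metabolism were taken from lists set beside the members, whose counts stand against 28.4% of all genes called higher and 36.5% lower in this comparison. In either direction 64.9% of all genes were called, and nothing particular to a list is read from its count. In enterocyte-like against stem-like barcodes of the Lgr5+ libraries, 19 of 20 genes of fatty acid oxidation rose, led by Acsl5 (2.79) and the carnitine carrier Slc25a20 (2.18), and Acsl1 fell (-0.48). Of 18 TCA cycle genes 15 rose, led by Mdh2 (2.21) and Ogdh (1.67), and Idh2 fell (-0.53). Among cytochrome c, carriers and channels 9 of 10 rose, with mitochondrial creatine kinase Ckmt1 at 2.96 and cytochrome c (Cycs) at 1.61, and the adenine nucleotide carrier Slc25a4 fell (-1.16). Glycolysis had 10 of 16 higher, with Pfkp at 3.90 and Aldoa at 1.99, and 2 lower, Hk2 at -3.05 and Ldhb at -2.69. Of 78 mitochondrial ribosomal protein genes 42 rose, Mrps36 (1.16) and Mrpl51 (1.02) in front, and 4 fell, Mrpl19 (-0.56) and Mrpl44 (-0.34) among them. Assembly factors with other names had 22 of 35 higher, with Cox11 at 1.38 and Coa7 at 1.21, and 3 lower, Nubpl (-0.63) and Tmem186 (-0.54) among them. The 13 mitochondrially encoded subunits, which share complexes with the members, had 7 higher with a median of 0.22, mt-Nd4l (0.45) and mt-Nd5 (0.27) in front. Their sum is also bounded by the limit of 5% on kept barcodes.

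Not every growth-related list rose. Of 78 cytosolic ribosomal protein genes tested 75 fell and 1 rose (median -0.52), with Rpl12 at -0.87 and Rpl36a at -0.79. Of 17 regulators of mitochondrial genes 5 rose and 10 fell. Ppargc1a (2.37), the coactivator known for driving mitochondrial gene expression, and Ppara (2.24), the receptor that controls fatty acid oxidation, rose most, and the orphan receptor Esrrg (-3.04) and Myc (-2.99) fell most.

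Between genotypes the members hardly differed in the Lgr5+ libraries. Over all kept barcodes the 98 genes summed to 62798 and 64182 CPM in WT and to 62306 and 64274 CPM in Setdb1-KO, with overlapping values. Of 93 members tested 0 were called (1.34% of all genes called in edgeR, 0.812% higher and 0.527% lower), 2 had an unadjusted p under 0.05 and DESeq2 called 1. Nearest was Cox7a1, at 51.0 and 55.8 CPM in WT and 75.7 and 76.5 CPM in Setdb1-KO (log2 0.52, SE 0.10, adjusted p = 0.0698). Enterocyte-like barcodes numbered 137 of 4768 and 228 of 6133 kept in WT, and 301 of 2894 and 691 of 11423 in Setdb1-KO. Cox7a1 differed by 0.07 (SE 0.14) within enterocyte-like and by 0.72 (SE 0.21) within stem-like barcodes, without a call in either. The part of the class mix in the difference was not tested. Enterocyte-like barcodes had 0 of 92 called (0.434% of all genes, 0.217% in each direction, 1 member at an unadjusted p under 0.05, DESeq2 0), and their sums overlapped. The study describes the mature enterocytes of this sort as cells without GFP that came through incomplete enrichment. Whether these enterocyte-like barcodes had lost Setdb1 was not tested. Stem-like barcodes had 0 of 92 called (1.79% of all genes, 0.837% higher and 0.949% lower, 12 members at an unadjusted p under 0.05, DESeq2 0), with a median of 0.14 and sums of 55807 and 57789 CPM in WT below 59130 and 59820 CPM in Setdb1-KO. Cox6b2 came nearest there (23.2 and 30.6 against 41.9 and 38.6 CPM, log2 0.62, SE 0.15, adjusted p = 0.0667). The limit for the stem-like class was 4476 and 3818 marker CPM in WT and 2000 and 2327 marker CPM in Setdb1-KO. Its part in the difference between genotypes was not tested. Without WT 2 the stem-like count was 7, without WT 1 or Setdb1-KO 1 it was 1, with no filter on low counts 2, and with the replicate number as a block 5. For the change from stem-like to enterocyte-like, no member was called for a difference between genotypes (0 of 92 called, 0.115% of all genes, 0.0573% in each direction, 4 at an unadjusted p under 0.05, DESeq2 0). With 2 libraries against 2, an exact permutation test of a single value cannot go below p = 0.33. Shares of all genes at an unadjusted p under 0.05 are not given, so those counts are not read as results about the members.

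In the lineage-traced libraries the sums separated by genotype. Over all kept barcodes they were 50085 and 49458 CPM in WT and 67716 and 83904 CPM in Setdb1-KO. Beside these stand the Paneth markers, of which 8 of 8 were lower in Setdb1-KO (median -2.60), the enterocyte markers, of which 10 of 10 were lower (median -3.01), and RNA outside cells, in which the Paneth markers summed to 249245 and 270525 CPM in WT and 114929 and 115699 CPM in Setdb1-KO. Their part in the difference was not tested. With TMM scaling 1 member was higher and 1 lower of 92 (8.73% of all genes called, 1.54% higher and 7.19% lower). Cox7a1 was at 155 and 132 CPM in WT and at 74.0 and 97.2 CPM in Setdb1-KO (log2 -1.25, SE 0.29, adjusted p = 0.0179), and Cox6b2 at 4.44 and 5.57 CPM against 12.1 and 13.6 CPM (log2 0.89, SE 0.25, adjusted p = 0.0481). The count was 0 without WT 1 or without WT 2, 1 without Setdb1-KO 2, 9 without Setdb1-KO 1, and 41 with library size, which moves the median of all genes to 0.54. In stem-like barcodes 0 of 92 were called (1.15% of all genes, 0.216% higher and 0.937% lower, 1 member at an unadjusted p under 0.05, DESeq2 0), and the sums of 70465 and 60968 CPM in WT and 65317 and 74322 CPM in Setdb1-KO overlapped.

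Among the comparisons tested between genotypes, enterocyte-like barcodes of these libraries had the most members called. The limit for this class, raised where free RNA is rich in its markers, was 10805 and 13265 marker CPM in WT and 10000 in both Setdb1-KO libraries. The sums were 76425 and 60781 CPM in WT, from 1287 and 389 barcodes, and 109119 and 120414 CPM in Setdb1-KO, from 47 and 195 barcodes, with free RNA at most 28.6% and 41.5% of UMIs in WT and 5.66% and 12.9% in Setdb1-KO. Of 88 members 12 were called higher and 0 lower in Setdb1-KO (19.9% of all genes called, 7.04% higher), and the median was 0.67. The largest were the assembly factor Ndufaf6 (1.57, SE 0.43), the iron-sulfur core subunit Ndufs7 (1.34, SE 0.34), Atp5g2 (1.28, SE 0.34), Sdhaf1 (1.27, SE 0.39) and Ndufa8 (1.26, SE 0.33), followed by Ndufb10 (1.21), Ndufab1 (1.18), Ndufs3 (1.15), Atp5g1 (1.12), Ndufb5 (1.00), Ndufaf2 (0.98) and Ndufaf8 (0.98). Ndufs7 stood at 317 and 277 CPM in WT and 743 and 825 CPM in Setdb1-KO, and Atp5g2 at 591 and 517 CPM against 1430 and 1425 CPM, without overlap in either gene. No gene of complexes II, III or IV was called, but the medians of complexes III (0.61) and IV (0.69) were close to those of complexes I (0.69) and V (0.65), and a difference between complexes was not tested. Complex II had a median of 0.39, with Sdha at -0.32 (SE 0.35, adjusted p = 0.538). The count was 71 without Setdb1-KO 1, which holds 47 barcodes, 3 without Setdb1-KO 2, 0 without WT 1 and 2 without WT 2. It was 63 with a minimum of 1000 UMIs, 46 with library size, 42 without barcodes of 2 classes and 1 with no filter on low counts. For these alternatives the share of all genes called is not given, and nothing about the members as a group is read from them.

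Markers of the villus top moved with this difference. In the same comparison 6 of 6 such genes tested were lower in Setdb1-KO (median -4.55), as were 8 of 8 Paneth markers (median -2.80), while 44 of 77 cytosolic ribosomal protein genes were higher (median 1.01). When the enterocyte-like barcodes of each library were split in 3 by their share of villus-top UMIs, the sum of the members fell from 98161 to 75723 and 47157 CPM in WT 1 and from 69452 to 62207 and 44168 CPM in WT 2. Cox7a1 fell with it, from 902 to 672 and 278 CPM in WT 1 and from 474 to 423 and 204 CPM in WT 2. In the Lgr5+ libraries it went the other way in all 4, from 240 to 414 CPM in the lowest part to 364 to 468 CPM in the middle and 522 to 593 CPM in the highest. In Setdb1-KO the 3 parts lay at 107128 to 112469 CPM (15 or 16 barcodes each) and at 117003 to 122457 CPM, but most of these barcodes held no villus-top UMI. In both libraries 2 of the 3 parts were at 0 CPM, so that the split has no order there, and the highest part reached at most 757 CPM, against 12404 and 10966 CPM in the highest part of WT. In the Lgr5+ libraries, where these genes reached at most 779 CPM, the sum lay at 87066 to 99521 CPM in every part. Leaving out the enterocyte-like barcodes with any villus-top UMI, an alternative chosen after seeing the data, left 332 and 113 barcodes in WT and 37 and 160 in Setdb1-KO. The sums were then 98721 and 75128 CPM in WT against 106000 and 120848 CPM in Setdb1-KO, and 1 of 85 members was called, with a median of 0.11. Free RNA was then at most 26.7% and 47.7% of UMIs in WT and 5.63% and 14.6% in Setdb1-KO, and the smaller number of barcodes, whose part in the lower count was not tested, goes with this setting.

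**Figure D5:**
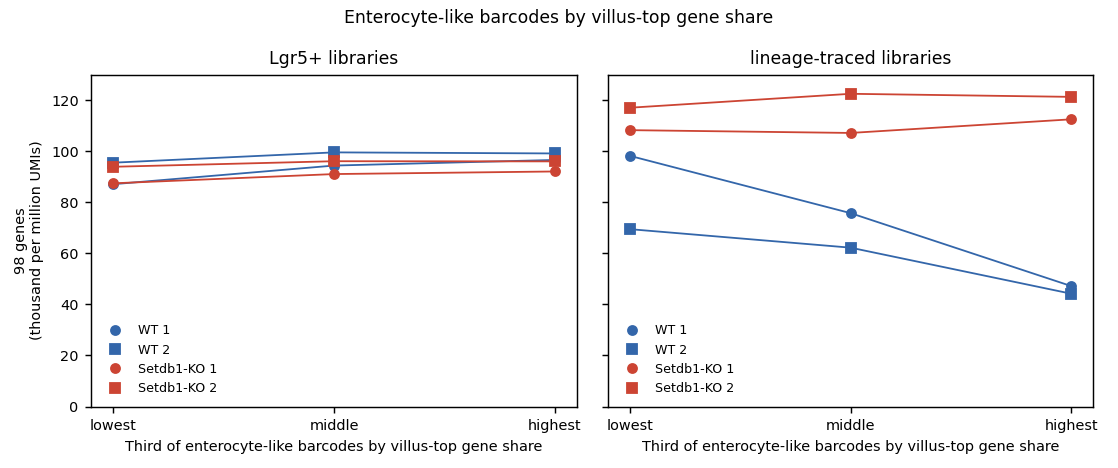
Summed UMIs of the 98 genes (vertical axis, in units of 1000 CPM) in enterocyte-like barcodes split in 3 equal parts by their share of villus-top UMIs (horizontal axis), one line per library. The lineage-traced WT libraries decline to 47157 and 44168 CPM in the highest part, while the Lgr5+ libraries lie at 87066 to 99521 CPM, and 2 of the 3 parts of each lineage-traced Setdb1-KO library hold no villus-top UMI and have no order.

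The change from stem-like to enterocyte-like barcodes, whether a rise or a fall, was more positive in Setdb1-KO than in WT for 4 of 92 members in the lineage-traced libraries (4.84% of all genes called, 1.65% higher), namely Cox7a1 (1.27, SE 0.28, adjusted p = 0.000652), Sdhaf1 (1.26, SE 0.39), Atp5g2 (1.06, SE 0.32) and Ndufaf2 (0.92, SE 0.29). DESeq2 called 44, and 0 were called without the barcodes with a villus-top UMI or without Setdb1-KO 2, and 1 without WT 1. The share of all genes called under these alternatives is not given, so their counts are not read as a result about the members. Finally, the genotype effect over all kept barcodes differed between the experiments for 1 of 93 members (7.58% of all genes called, 6.07% lower). Cox7a1 was lower in lineage-traced Setdb1-KO libraries than the Lgr5+ libraries would give, by a difference of -1.76 (SE 0.31, adjusted p = 0.00462). Without lineage-traced Setdb1-KO 1 the count was 6. The experiments also differ in reporter and depth, which cannot be told apart from the sorted population.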

How the data were processed

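Single-cell RNA-seq UMI counts of 8 libraries were used. The authors deposited UMI counts, not normalized, for every barcode, with doublets not removed. The submitters' processing notes name Cell Ranger 6.1.1 and mm10. Other assays of the study were not analyzed here. Barcodes were kept and classed by fixed marker sums (at least 2000 marker CPM for stem and progenitor, 3000 for tuft and T cell, 10000 for enterocyte and enteroendocrine, 50000 for goblet and 100000 for Paneth), with at least 2 (stem, progenitor) or 3 marker UMIs and at least 2 times the share of those markers in the library's free RNA. The limit can therefore be higher in libraries whose free RNA is richer in those markers. No doublet caller was run, but barcodes of 2 differentiated classes (18 to 182 per library) were left out as an alternative. UMIs were summed per library and class (at least 20 barcodes) and tested in edgeR 4.0.16 (R 4.3.3) with TMM scaling, its filter on low counts and quasi-likelihood F tests. Classes were compared with the library as a block, and adjusted p-values run over all genes tested. DESeq2 1.42.0 was an alternative. Fold changes are therefore relative to TMM-scaled libraries, and CPM values are not. The scripts were tested on simulated data. Free RNA was estimated from the Paneth-marker UMIs of a class against those of barcodes of 1 to 100 UMIs, as an upper limit. Counting error entered the tests through the count models of edgeR and DESeq2, together with the spread between libraries. For CPM values and their SDs it was not modelled.

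The members and gene lists were chosen with earlier results of these data known. Genes are named by size of change within each complex (up to 4 per direction), with all complex II genes, the isoform sets and 2 genes per list. Ndufa7, Uqcr10, Atp5a1 and Atp5b were named after their values were seen. Replicate numbers are not stated to pair libraries. Promoter motifs were searched on both strands in 300 bases (250 before to 50 after the start) of RefSeq genes. A gene that the naming rule could cover is not reported here.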

Additional observations from a re-analysis of the deposited data

Results flagged for a closer look

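In the lineage-traced libraries 4 members differed between genotypes in their change from stem-like to enterocyte-like barcodes by a test of the difference itself (edgeR quasi-likelihood, adjusted p under 0.05). They were 4 of 92 tested, all called higher. In the same test 4.84% of all genes were called in either direction and 1.65% higher. The count is not read as a result about the members as a group. The difference, Setdb1-KO minus WT on the log2 scale, was 1.27 for Cox7a1 (SE 0.28, adjusted p = 0.000652), 1.26 for Sdhaf1 (SE 0.39, adjusted p = 0.0360), 1.06 for Atp5g2 (SE 0.32, adjusted p = 0.0332) and 0.92 for Ndufaf2 (SE 0.29, adjusted p = 0.0421). For Cox7a1 it was 0.12 (adjusted p = 0.944) with free RNA subtracted and 0.52 (adjusted p = 0.716) without enterocyte-like barcodes that held a villus-top UMI, both alternatives chosen after seeing the data. For Sdhaf1 the call ended in 8 of its alternatives, among them DESeq2 (adjusted p = 0.0691).

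The effect of Setdb1-KO over all kept barcodes differed between the experiments for Cox7a1, by -1.76 on the log2 scale (lineage-traced minus Lgr5+, SE 0.31, adjusted p = 0.00462). Cox7a1 was 51.0 and 55.8 CPM in WT and 75.7 and 76.5 CPM in Setdb1-KO in the Lgr5+ libraries, and 155 and 132 CPM against 74.0 and 97.2 CPM in the lineage-traced ones. The enterocyte markers moved with it, with 10 of 10 lower in lineage-traced Setdb1-KO over all kept barcodes (median -3.01). In the Lgr5+ libraries enterocyte-like barcodes numbered 137 of 4768 and 228 of 6133 kept in WT, and 301 of 2894 and 691 of 11423 in Setdb1-KO. The part of the class mix in the difference between experiments was not tested.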

How the results depend on the processing

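The numbers of members called are given here. Here and above, counts under alternatives stand without the share of all genes called in the same alternative. They show how stable a count is and are no result about the members as a group. In Lgr5+ libraries the change from stem-like to enterocyte-like kept its count within 1.5 times of 82 in every alternative run (70 to 87), and enterocyte-like barcodes kept 0 between genotypes. With library size in place of TMM, 32 members were called for the difference between experiments (1 in the test as reported), 32 for the difference between genotypes in lineage-traced barcodes (4), 7 for lineage-traced enterocyte-like against stem-like (56), 1 for Lgr5+ genotypes over all kept barcodes (0), and 41 and 46 for lineage-traced genotypes over all kept (2) and enterocyte-like barcodes (12). With no filter on low counts the counts were 1 (of 4), 1 (of 12) and 2 (of 0, Lgr5+ stem-like). A minimum of 1000 UMIs gave 10 (of 4) and 63 (of 12), and one of 2000 UMIs gave 1 in Lgr5+ stem-like barcodes. DESeq2 gave 44 (of 4), 1 in Lgr5+ and 1 in lineage-traced libraries over all kept barcodes. Classed barcodes only, chosen after seeing the data, gave 1 and 1 for the same comparisons, villus-top barcodes left out gave 0 (of 4) and 1 (of 12), and subtracting free RNA gave 224 over the other Lgr5+ classes (374). Free RNA was not subtracted from Paneth-like barcodes. The 224 therefore hold no Paneth-like comparison while the 374 do, and these counts are not like for like. Leaving out barcodes of 2 classes gave 42 (of 12). Without the library block, 26 (of 56) and 19 (of 134, other lineage-traced classes) were called, and 34 (of 56) in WT libraries only.

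Leaving out 1 library at a time gave 1 to 6 for the difference between experiments, 0 to 6 for that between lineage-traced genotypes, 30 to 72 for lineage-traced and 81 to 83 for Lgr5+ enterocyte-like against stem-like, 316 to 372 and 74 to 128 for the other classes of Lgr5+ and lineage-traced libraries, 0 to 0 and 0 to 9 for genotypes over all kept barcodes, 0 to 7 and 0 to 1 in stem-like, and 0 to 0 and 0 to 71 in enterocyte-like barcodes, in the same order. The replicate number was tried as a block between genotypes. The correlation of same-numbered libraries was 0.01, 0.09 and -0.02 in Lgr5+ and 0.31, 0.07 and 0.13 in lineage-traced libraries (all kept, stem-like and enterocyte-like barcodes), and with 2 pairs and no stated pairing the samples share only a number. With this replicate block 5 members were called in Lgr5+ stem-like barcodes (0 without it), and the other counts stayed within 1.5 times. No named gene changed direction past the threshold. Of the alternatives for single genes 1001 kept their side of the threshold, 140 lost it and 19 gained it. Depth limits the lineage-traced classes, and the enterocyte-like class of Setdb1-KO 1 holds 47 barcodes. The causes of these changes were not tested.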

Other observations

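Among the 79 members with a RefSeq promoter, 7 (8.86%) held the NRF1 motif, against 1.07% of all 27025 genes with a promoter of the same length, namely Atp5g2, Atp5k, Cox6a1, Ndufa11, Ndufaf4, Ndufaf5 and Uqcrc1. The YY1 motif was in 5 (6.33%, all genes 0.755%), the CREB motif TGACGTCA in 4 (5.06%, all genes 2.03%), the ETS motif CCGGAAGT in 5 (6.33%, all genes 4.31%) and the ERR motif TCAAGGTCA in 2 (2.53%, all genes 0.466%), Atp5g3 and Sdhd. The HNF4 motif CAAAGTCCA was in none of the 79 (all genes 0.555%). These are matches of letters on both strands, and they were not related to the changes above.

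Within a class, the summed level of the members also differed with depth, but not in one direction. In Lgr5+ stem-like barcodes the deeper part of each library lay at 57222 to 61028 CPM and the shallower part at 53091 to 57368 CPM, with the deeper part higher in all 4. The order was the opposite in Lgr5+ enterocyte-like barcodes, where the deeper part was lower in all 4 libraries, at 89469 to 95556 CPM against 91444 to 102280 CPM. In lineage-traced stem-like barcodes the deeper part was higher in 3 libraries and lower in Setdb1-KO 1, at 64801 against 67362 CPM. In lineage-traced WT enterocyte-like barcodes the deeper parts lay at 83546 and 64868 CPM and the shallower ones at 57242 and 46123 CPM, and in Setdb1-KO they lay at 113126 and 124424 CPM against 89361 and 107346 CPM.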
